A study of Homo sapiens with 6 samples.

Results

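The calcium-activated potassium channels were followed through 7 genes, picked by symbol from a table of 58051 genes: KCNN1, KCNN2, KCNN3 and KCNN4, which encode small- and intermediate-conductance channels, KCNMA1, which encodes the pore of the large-conductance (BK) channel, and KCNMB3 and KCNMB4, which encode BK auxiliary subunits. The group was picked because KCNN4 had already been seen among the lowest fold changes of this comparison. Differences between the groups are therefore given for these 7 genes as a description, without p-values. The counts came from poly(A)-selected RNA sequencing of HEK293T cells, an established line derived from human embryonic kidney that expresses the SV40 T-antigen. Cells were transiently transfected with the empty vector pcDNA3.1- (3 libraries) or with pcDNA3.1-ppk1 (3 libraries), which carries the gene of a bacterial polyphosphate kinase, and were harvested 48 hours later. Libraries B, C and D of the 2 groups were matched biological replicates. All cells were treated with a lipid transfection reagent and kept in OptiMeM after it. The transfection was transient, and the share of cells that took up plasmid was not analysed here, nor was the level of ppk1 itself. The study asks how human cells respond to polyphosphate made inside them.

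These channels let potassium leave the cell when cytosolic calcium rises, and so tie calcium signals to membrane voltage and cell volume. The KCNN channels sense calcium through calmodulin that is bound to them at all times. KCNN4 (KCa3.1, the Gardos channel of red blood cells) is also known from T lymphocytes, where it keeps the membrane negative while calcium enters, and from epithelia that secrete fluid. KCNN1, KCNN2 and KCNN3 (SK1, SK2 and SK3) are best known for the afterhyperpolarization of neurons. The BK channel binds calcium at its own cytosolic domain, opens with both calcium and voltage, and is tuned by beta subunits such as those of KCNMB3 and KCNMB4.

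KCNN4 transcripts were about 11.3-fold lower with ppk1, and the fitted difference of every other gene of the group was 1.39-fold or less. Library totals ran from 40851783 to 67122986 counts. All 7 genes passed the filter on low counts, KCNN4 through the empty vector group: 3 of its empty vector libraries but only 1 of its ppk1 libraries reached the filter's level of 0.215 CPM (counts per 1000000 counts of the library). Of the 7 genes, 2 (28.6%) were called at a Benjamini-Hochberg adjusted p below 0.05 in edgeR's quasi-likelihood test over all genes. Both were lower: KCNN4 and KCNN3. KCNN4 was the reason the group was picked, so its call was fixed beforehand and the share is not a result about the group. The KCNN3 call was held narrowly, as given below. Among the 19574 genes tested, 9.08% were called, 5.04% as lower and 4.04% as higher. All 3 pairs pointed the same way for 6 of the 7 genes (5 lower, 1 higher), as they did for 43.8% of all tested genes. Among the 5, KCNN2 in pair C (log2 ratio -0.0009) and KCNMB4 in pair D (-0.0042) were practically level. The median log2 fold change was -0.10 over the 7 genes and 0.01 over all genes tested.

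The start regions of 3 genes are shown here: KCNN4 and KCNN3, the 2 called genes, and KCNN1, the most abundant KCNN gene. Each window runs from 250 bases before to 50 bases after a RefSeq start (GRCh38.p14, minus strand for KCNN4 and KCNN3, plus strand for KCNN1), at chr19:43780924-43781223 for KCNN4, chr1:154870232-154870531 for KCNN3 and chr19:17966857-17967156 for KCNN1. KCNN3 has 3 such windows and KCNN1 has 2, and the window shown is the first listed for each. Capitals mark matches, on either strand, to the GC box GGGCGG, the E-box CANNTG, the SMAD box CAGAC and the cyclic AMP response element core GACGTC. AP-1 (TGANTCA), EGR (GCGNGGGCG) and full cyclic AMP response element (TGACGTCA) letters were searched as well and have no match in these 3 windows.
KCNN4: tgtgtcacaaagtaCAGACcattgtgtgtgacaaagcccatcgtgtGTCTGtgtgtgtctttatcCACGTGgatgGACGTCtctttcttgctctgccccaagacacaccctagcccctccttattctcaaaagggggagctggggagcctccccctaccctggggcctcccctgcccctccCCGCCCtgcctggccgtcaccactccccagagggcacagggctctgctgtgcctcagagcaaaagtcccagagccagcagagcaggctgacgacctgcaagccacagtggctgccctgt
KCNN3: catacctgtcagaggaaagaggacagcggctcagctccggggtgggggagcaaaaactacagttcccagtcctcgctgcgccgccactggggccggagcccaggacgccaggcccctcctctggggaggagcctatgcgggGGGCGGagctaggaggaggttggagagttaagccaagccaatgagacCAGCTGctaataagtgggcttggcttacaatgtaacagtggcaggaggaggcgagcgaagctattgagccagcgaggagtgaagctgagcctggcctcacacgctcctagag
KCNN1: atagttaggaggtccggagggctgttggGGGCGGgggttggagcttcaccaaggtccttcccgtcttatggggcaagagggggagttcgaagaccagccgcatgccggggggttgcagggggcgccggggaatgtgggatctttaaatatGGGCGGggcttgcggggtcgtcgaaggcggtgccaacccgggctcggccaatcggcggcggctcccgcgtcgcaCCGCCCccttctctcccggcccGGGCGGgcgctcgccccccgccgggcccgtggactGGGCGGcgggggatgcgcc

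The KCNN4 window holds 1 E-box, the palindrome CACGTG, whose first base lies at -185 from the start, and 1 match to GACGTC at -175. Of the 35116 windows in the RefSeq table, 68.7% hold an E-box of any kind, 7.26% hold CACGTG and 5.03% hold GACGTC. The full element TGACGTCA occurs in 1.85% of windows and not in that of KCNN4. Each CACGTG match is also counted among the E-boxes. KCNN4 further holds 2 SMAD box matches, at -236 and -204, and 1 GC box match, at -69, and these letters occur in 45.3% and 45.0% of all windows. The KCNN3 window shown holds 1 GC box match (-109) and 1 E-box of the form CAGCTG (-62). The other 2 KCNN3 windows hold 4 and 3 E-boxes and no GC box, with 2 and 11 CpG dinucleotides, and the first of them holds 1 AP-1 match (TGAGTCA at -27), letters found in 7.71% of all windows. The KCNN1 window shown holds 5 GC box matches and no E-box, and the other KCNN1 window holds 2 and 1. The windows shown also differ in CpG dinucleotides, with 6 in KCNN4, 13 in KCNN3 and 33 in KCNN1, against a median of 14 over all windows. As few as 6 were found in 36.8% of windows. RefSeq windows were found for 6 of the 7 genes, 12 windows in all, and KCNMB4 had none in the table. Matches are letters in a window, and which start these cells use was not measured.

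KCNN4 (ENSG00000104783, chromosome 19, minus strand) had 123, 103 and 70 counts in libraries B, C and D of the empty vector group, and 10, 7 and 12 counts in those of the ppk1 group. After scaling of the libraries, the CPM values were 2.33, 2.33 and 1.71 with the empty vector and 0.15, 0.146 and 0.287 with ppk1. Every ppk1 library lay far below every empty vector library. The group means were 2.12 ± 0.35 and 0.194 ± 0.08 CPM (SD, n = 3). The fitted log2 fold change was -3.50 (SE 0.26), with a 95% interval of -4.03 to -2.98. Among the 19574 tested genes only 2 had a lower value, and both of them averaged under 50 normalized counts.

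The size of the KCNN4 difference varied between the pairs. The ppk1 library was 15.6-fold lower in pair B (exact 95% interval for counting error 8.18 to 33.3), 15.9-fold lower in pair C (7.46 to 40.6) and 5.97-fold lower in pair D (3.21 to 12.1). Pair D had both the lowest empty vector level and the highest ppk1 level. The intervals of the 3 pairs overlap and rest on 7 to 12 counts in the ppk1 libraries. They cover counting error only and leave out differences between replicates, since each rests on the libraries of its own pair. Reads without molecular identifiers are not independent molecules, so even the counting error may be understated. In RNA from a whole culture, fewer cells that express a gene and less RNA per cell cannot be told apart.

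**Figure D1:**
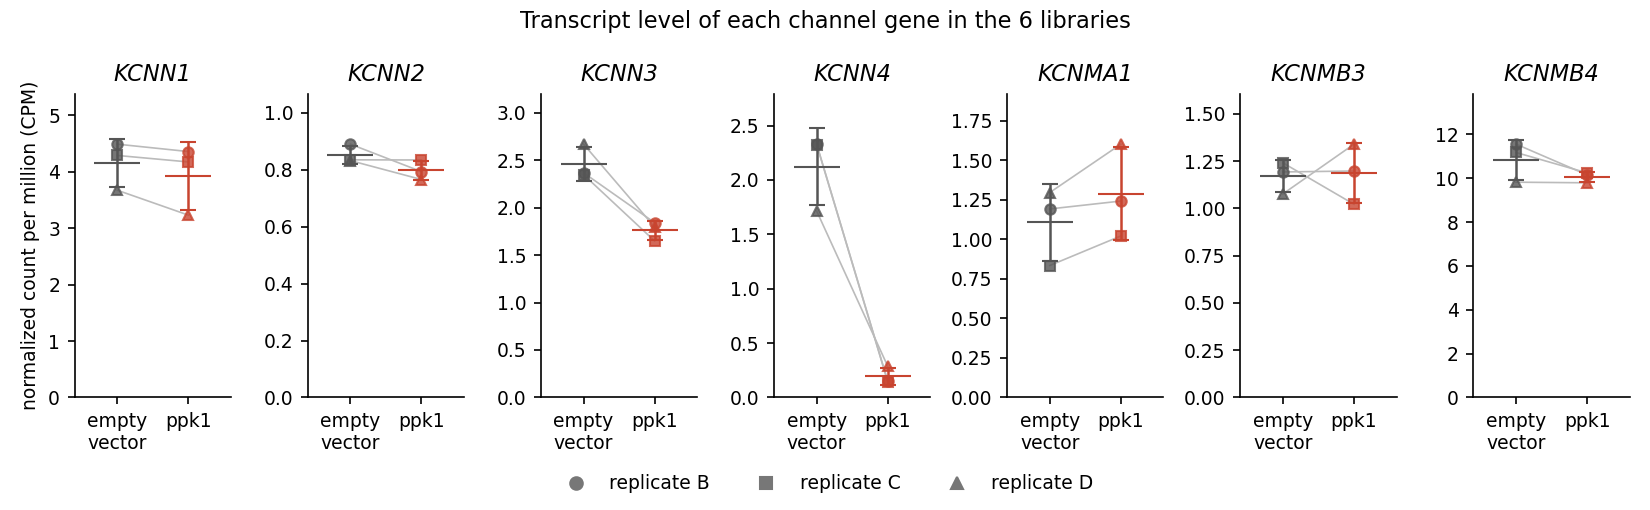
Normalized level of each gene (CPM, linear axis from 0) in the empty vector (grey) and ppk1 (red) libraries. Symbols mark replicates B, C and D, thin lines join matched libraries, and horizontal bars with whiskers give the mean and SD (n = 3). KCNN4 lies at 1.71 to 2.33 CPM with the empty vector and at 0.146 to 0.287 with ppk1, and the groups of KCNN3 also do not overlap.

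KCNN3 (ENSG00000143603, chromosome 1), the SK3 channel gene, had 125, 104 and 109 counts in empty vector libraries B, C and D and 123, 79 and 75 in the matched ppk1 libraries. On the CPM scale, 2.37, 2.35 and 2.67 stood against 1.84, 1.65 and 1.79. The groups did not overlap, and the ppk1 library was lower in all 3 pairs. Levels did not overlap and were lower with ppk1 for 12.6% of all tested genes. The log2 fold change was -0.47 (SE 0.16), which is 1.39-fold lower, with a 95% interval of -0.79 to -0.16. Its call was held narrowly: it was made in 2 of 10 alternative fits, with RLE scaling and without a filter, and was lost without the replicate block and without each of the replicates B, C and D. The value itself moved little in the alternatives, between -0.54 and -0.45.

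KCNN1 (ENSG00000105642, chromosome 19), the SK1 gene, was the most abundant of the KCNN genes. Its level was 4.49, 4.29 and 3.67 CPM in empty vector libraries B, C and D and 4.36, 4.17 and 3.23 CPM in the ppk1 libraries. The library of replicate D was the lowest in both groups. Each ppk1 library was slightly lower than its match, the groups overlapped, and the log2 fold change was -0.08 (SE 0.13, 95% interval -0.33 to 0.17).

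KCNN2 (ENSG00000080709, chromosome 5), the SK2 gene, had the fewest counts of the 7 in the empty vector libraries, with 47, 37 and 34 in B, C and D and 53, 40 and 32 with ppk1. Its CPM values were 0.89, 0.835 and 0.832 against 0.794, 0.834 and 0.766, and the groups overlapped. The log2 fold change was -0.10 (SE 0.22). At this depth the 95% interval ran from -0.55 to 0.35, so a difference as large as that of KCNN3 was not distinguishable from none for KCNN2.

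**Figure D2:**
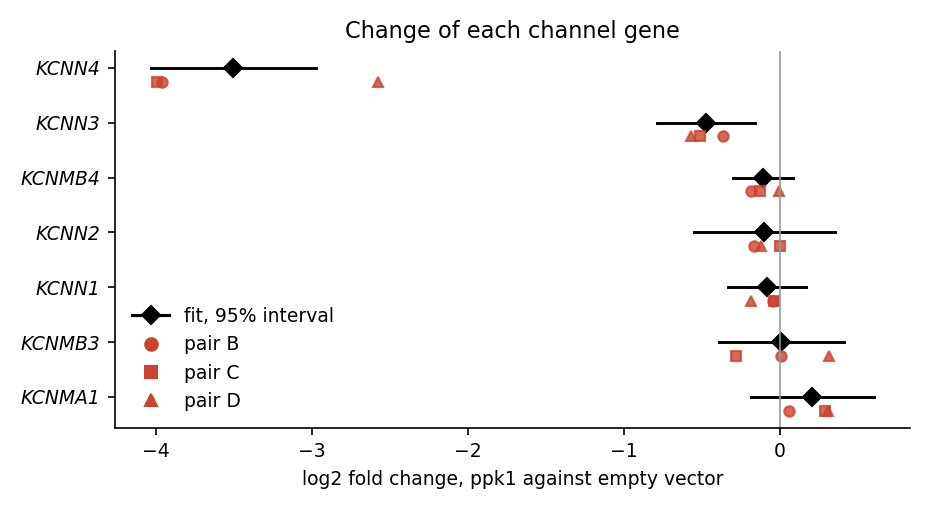
Log2 fold change of ppk1 against empty vector for each gene. Black diamonds and lines give the value of the fit over all 6 libraries with its 95% interval, and red symbols give the ratio within each matched pair. KCNN4 lies at -3.50, KCNN3 at -0.47, and the intervals of the other 5 genes include 0.

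Summed per kilobase of annotated exon, the 4 KCNN genes reached 1.98 ± 0.199 CPM per kilobase with the empty vector and 1.29 ± 0.131 with ppk1 (mean ± SD, n = 3). KCNN4 made up 31.3% ± 2.31 of this sum with the empty vector and 4.57% ± 2.42 with ppk1. With the median length of the coding transcripts in place of all exons, its share of the summed group means was 25.4% and 3.28%. KCNN1 made up 52.7% ± 0.425 and 75.8% ± 4.3, although its own mean level was not higher with ppk1 (1.04 and 0.985 CPM per kilobase). The sum of KCNN1, KCNN2 and KCNN3 alone was 1.35 ± 0.0977 and 1.24 ± 0.154 CPM per kilobase. The ranges of the 2 groups overlapped, and within the pairs the sum was lower with ppk1 in all 3, from 1.44 to 1.35 (B), from 1.38 to 1.3 (C) and from 1.25 to 1.06 (D). The KCNN4 part lay between 0.503 and 0.684 CPM per kilobase with the empty vector and between 0.0428 and 0.0843 with ppk1.

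**Figure D3:**
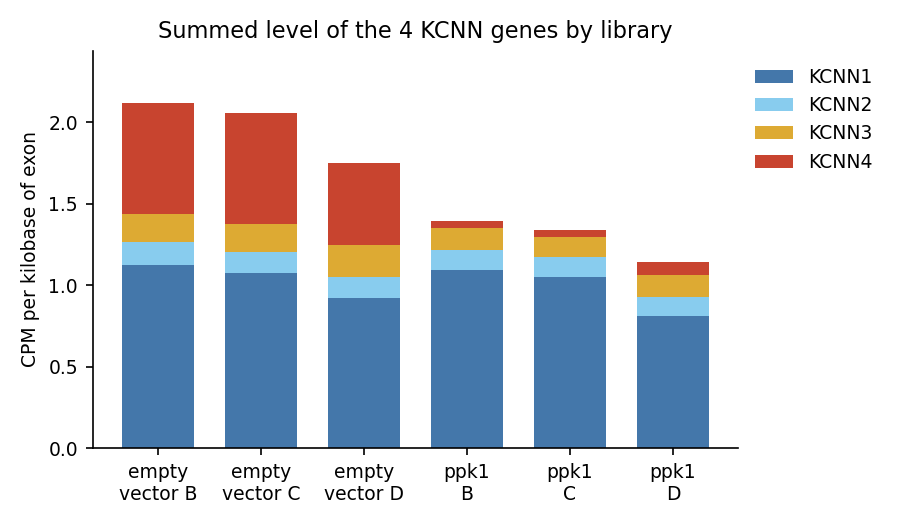
Level of the KCNN genes in each library, in CPM per kilobase of annotated exon, stacked by gene. Each bar is 1 library. The red KCNN4 segment is 28.7% to 33.1% of the bar with the empty vector and 3.15% to 7.35% with ppk1, and the KCNN1 segment is the largest in all 6.

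KCNMA1 (ENSG00000156113, chromosome 10), the BK pore gene, was the only gene of the group that was higher with ppk1 in all 3 pairs. Its CPM values were 1.19, 0.835 and 1.3 in empty vector libraries B, C and D and 1.24, 1.02 and 1.6 in the ppk1 libraries. The groups overlapped, and replicates differed more than the groups did, with coefficients of variation of 21.9% and 22.7%. The log2 fold change was 0.21 (SE 0.20, 95% interval -0.19 to 0.60), and the gene was not called.

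KCNMB4 (ENSG00000135643, chromosome 12), the BK beta 4 subunit best known from brain, had the highest level of the 7. Its CPM values were 11.6, 11.2 and 9.82 in empty vector libraries B, C and D and 10.2, 10.2 and 9.79 in the ppk1 libraries. Only the lowest empty vector library, D, fell within the range of the ppk1 group. With 401 to 678 counts per library this was the most precise value of the group, a log2 fold change of -0.11 (SE 0.10, 95% interval -0.30 to 0.08).

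KCNMB3 (ENSG00000171121, chromosome 3), the BK beta 3 subunit, had CPM values of 1.19, 1.24 and 1.08 with the empty vector (B, C and D) and 1.2, 1.02 and 1.34 with ppk1. The pairs pointed in different directions, and the log2 fold change was 0.01 (SE 0.20, 95% interval -0.39 to 0.41). Its counts are uncertain. In GENCODE release 29, 26.9% of its 50-base transcript stretches also occur in other genes, chiefly the pseudogene KCNMB3P1, and its exons overlap those of PIK3CA on the opposite strand. KCNN4 shared no such stretch and overlapped no other annotated gene.

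The order of levels was read per kilobase of annotated exon, because longer transcripts collect more reads. With the empty vector, KCNMB4 (2.23 ± 0.187) was followed by KCNN1 (1.04 ± 0.107), KCNN4 (0.623 ± 0.104), KCNN3 (0.181 ± 0.0132), KCNN2 (0.131 ± 0.00502), KCNMB3 (0.13 ± 0.0094) and KCNMA1 (0.0311 ± 0.0068), in CPM per kilobase (mean ± SD, n = 3). KCNN2 and KCNMB3 did not differ beyond their spread. With ppk1, KCNN4 moved from the third to the sixth place at 0.057 ± 0.0236, above KCNMA1 (0.0362 ± 0.00823) and below KCNMB3 (0.132 ± 0.0177), KCNN3 (0.13 ± 0.00741) and KCNN2 (0.123 ± 0.00533). The ranges of those last 3 genes over the ppk1 libraries overlapped. The ranges of KCNN4 (0.0428 to 0.0843) and KCNMA1 (0.0287 to 0.045) also overlapped, but KCNN4 was above KCNMA1 in every ppk1 library. With the median length of the coding transcripts in place of all exons, KCNN4 again took the third place with the empty vector (1.09 CPM per kilobase) and was last with ppk1 (0.0993). The order of the other genes depended on the length used, and KCNN1 then stood above KCNMB4 in both groups.

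Other parts of these channels and their relatives came from lists of genes chosen for their function. Of 6 further BK auxiliary genes, 5 had at most 4 counts in any library, among them KCNMB1 (0 to 1 count), the beta 1 subunit of smooth muscle, and KCNMB2. LRRC26, a gamma subunit that lets BK open at lower voltage, was measured at 1.92 ± 0.391 and 2.13 ± 0.122 CPM (empty vector and ppk1, SD, n = 3) and was not called (log2 fold change 0.14, SE 0.16, edgeR adjusted p 0.654). Of the 3 related SLO channels only KCNT2 was tested, and it was called lower. KCNT2 encodes a sodium-activated potassium channel, and its level fell from 25.9 ± 1.98 to 21.2 ± 1.12 CPM (log2 fold change -0.28, SE 0.08, edgeR adjusted p 0.0196). This call was lost without the replicate block, without replicate C and in DESeq2.

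Among 13 genes for partners and modulators of the KCNN channels, 1 was called higher and 0 lower by edgeR, against 9.08% called over all tested genes. The median log2 fold change of the list was 0.13. DESeq2 called 2 genes of this list, among them PPP2R1A. The gene called by edgeR was PPP2R1A, a scaffold subunit of the protein phosphatase 2A that sits on SK channels. Its level was 205.2 ± 8.92 and 252 ± 19 CPM (log2 fold change 0.29, SE 0.07, edgeR adjusted p 0.00665). This call was lost without replicate C and without the replicate block. CALM2 and CALM3, which encode the calcium sensor calmodulin, had log2 fold changes of 0.14 and 0.22 and edgeR adjusted p-values of 0.272 and 0.0536. PGAM5 and PHPT1, phosphatases that lower KCNN4 activity by opposing histidine phosphorylation, had log2 fold changes of 0.20 and 0.12 (edgeR adjusted p 0.0735 and 0.334). NME2, the kinase that adds this phosphate, had a log2 fold change of 0.14 (edgeR adjusted p 0.259).

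Of 10 transcription factor genes linked to KCNN4 in other cells, 2 were called higher and 0 lower, with a median log2 fold change of 0.04. Over all tested genes, 9.08% were called. REST, a repressor of KCNN4 in smooth muscle, was measured at 45.6 ± 2.03 and 45.2 ± 1.65 CPM (empty vector and ppk1, SD, n = 3) and was not called (log2 fold change -0.01, SE 0.08, edgeR adjusted p 0.937). The AP-1 genes FOS (log2 fold change 0.35, SE 0.11, edgeR adjusted p 0.033) and JUNB (0.28, SE 0.09, edgeR adjusted p 0.0322) were called higher. The FOS call was lost in 6 of 10 alternative fits: without the block, with upper-quartile scaling, with a mean of at least 50 counts, in DESeq2, without replicate B and without replicate D, where its value was 0.19. The JUNB call was lost in 7 of 10, the same 6 and without replicate C.

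Of 16 genes for calcium entry channels and their sensors, 14 were tested, 1 was called lower and 0 higher, and the median log2 fold change was -0.07. The share called over all tested genes, to set beside each count of this paragraph, was 9.08%. The store-operated pair ORAI1 and STIM1 had log2 fold changes of 0.00 and -0.04 (edgeR adjusted p 0.983 and 0.796). CACNA1G, a low-voltage-activated calcium channel gene, fell from 4.28 ± 0.648 to 2.94 ± 0.945 CPM (log2 fold change -0.56, SE 0.14, edgeR adjusted p 0.00801). Pair C, at -1.19, stood apart from pairs B (-0.32) and D (-0.21), and without replicate C the value was -0.28. The call was lost without replicate C, without the block and in DESeq2. Of 15 genes for the chloride channels, cotransporters and sodium pump that move ions alongside potassium in volume regulation, 1 was called lower and 0 higher, with a median of -0.03. It was SLC12A4, a potassium-chloride cotransporter gene (43.2 ± 8.43 and 34 ± 4.84 CPM, log2 fold change -0.34, SE 0.08, edgeR adjusted p 0.0044), whose call was lost without replicate C (-0.22) and without the block, and whose value was -0.51 without replicate D.

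The wider set of potassium channel genes was set beside KCNN4 as a description only. KCNN4 had been picked for its low value, so its place below the range of this set was fixed beforehand. Across 6 lists with 90 further genes, 42 were tested, and 3 were called lower and 1 higher. This share is near the 9.08% called over all tested genes. The log2 fold changes ran from -0.73 to 0.57, with a median of 0.00. The called genes were KCNJ4, an inward rectifier (-0.45, SE 0.13, edgeR adjusted p 0.017), KCNC4, a fast voltage-gated channel (-0.28, SE 0.08, edgeR adjusted p 0.0254), KCNT2, given above, and KCNAB3, an auxiliary subunit (0.39, SE 0.12, edgeR adjusted p 0.0237, log2 fold changes). The calls of KCNJ4, KCNC4 and KCNAB3 were lost without replicate C, without the block, with upper-quartile scaling and in DESeq2, that of KCNAB3 also without replicate D, and that of KCNJ4 also with counts thinned to the smallest library total. In pair D, KCNJ4 (0.04) and KCNC4 (0.02) were not lower with ppk1. Their values were -0.22 and -0.13 without replicate C and -0.68 and -0.44 without replicate D. Of the tandem-pore leak channels, 0 of 6 tested genes were called by edgeR or DESeq2, with 2 at an unadjusted edgeR p below 0.05.

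Genes next to KCNN4 on chromosome 19 were examined on both sides. Of the 6 nearest protein-coding genes in GENCODE release 29, 4 were tested, and 0 were called by edgeR or by DESeq2. Of all tested genes, edgeR called 9.08%. Among the neighbours, 1 (ZNF283) had an unadjusted edgeR p below 0.05. SMG9, the nearest on one side, was measured at 48 ± 3.12 and 49.9 ± 4 CPM (empty vector and ppk1, SD, n = 3), with a fitted log2 difference of 0.05 (SE 0.08, edgeR adjusted p 0.718). PLAUR, the urokinase receptor gene, had a log2 fold change of 0.08 (edgeR adjusted p 0.669). On the other side, ZNF283 had -0.24 (95% interval -0.44 to -0.04, edgeR adjusted p 0.117) and ZNF404 -0.11 (edgeR adjusted p 0.74). LYPD5 and IRGC had at most 6 and 2 counts in any library and were not tested. The 95% intervals of the 4 tested neighbours lay above -0.45, far from the value of KCNN4, which had been picked for its low value.

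**Figure D4:**
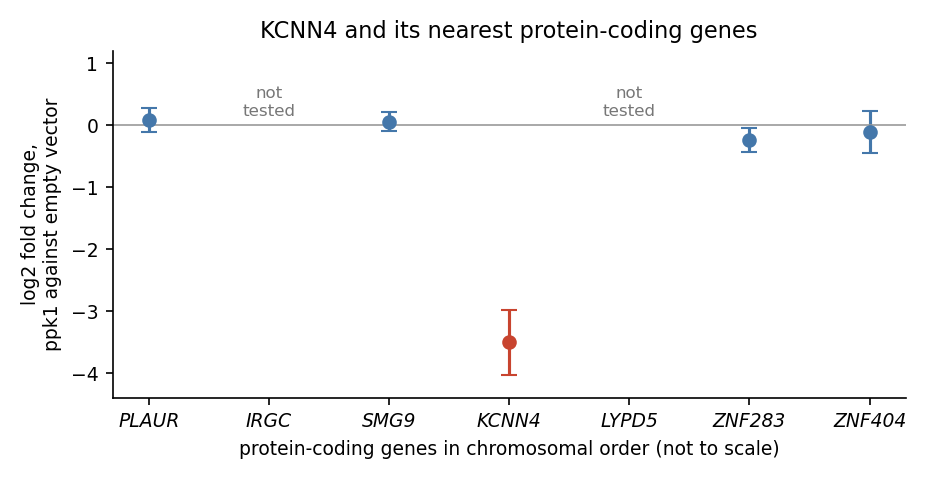
Log2 fold change of KCNN4 and the 3 nearest protein-coding genes on each side, in chromosomal order and not to distance. Points give the fitted value and whiskers its 95% interval. KCNN4 lies at -3.50 and the 4 tested neighbours between -0.24 and 0.08.

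The genes whose pattern over the 6 libraries was most like that of KCNN4 were found by the Euclidean distance between row-centred log2 CPM values. The candidates were 13834 genes that averaged 50 or more normalized counts, with genes known only by a clone-type name left out. The nearest were XKR7 (distance 1.29), ID3 (1.38), HIST2H4A (1.4), MGAM (1.71) and KRTAP5-AS1 (1.72), against a median distance of 4.07. Their log2 fold changes were -2.44, -2.45, -2.72, -2.03 and -2.06, so each of them was lower with ppk1, but by less than KCNN4. XKR7 had 101, 83 and 56 counts in empty vector libraries B, C and D and 15, 17 and 17 in the ppk1 libraries. ID3, an inhibitor of basic helix-loop-helix transcription factors, had 1615, 1535 and 1471 counts against 506, 254 and 230. The annotated spans of XKR7, HIST2H4A, MGAM and KRTAP5-AS1 overlap those of other genes. Whether their exons overlap was not examined, and their counts are uncertain to that extent. The likeness uses the same libraries and contrast, and is a description only.

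The line was checked against markers. All 8 genes reported in HEK293 cells (VIM, KRT8, KRT18, NEFL, NEFM, INA, PAX2 and LHX1) had over 100 counts in every library, and their summed level was between 800 and 926 CPM with the empty vector and between 785 and 826 CPM with ppk1. Of 9 markers of blood, endothelium, fibroblasts, liver and differentiated kidney, only COL1A1 had over 100 counts in every library. Their summed level was 16.6 to 21.6 and 19.9 to 20.7 CPM, and PTPRC and HBB, markers of blood cells in which KCNN4 is known, had at most 4 and 3 counts in any library.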

How the data were processed

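RNA was measured by sequencing in 6 HEK293T libraries. The deposited values are read counts per Ensembl gene, taken as raw because they are whole numbers with a different total in each library. Per the submitters' processing notes, bcl2fastq 2.20, Trimmomatic, STAR, HTSeq, edgeR, DESeq, Cufflinks and Cuffdiff were used. Their roles, the genome build, the annotation release and the strand setting are not given in the sources used here. Per the labels' protocols the library kit was directional.

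Counts were filtered (edgeR's filterByExpr, minimum count 10), scaled by TMM and tested with edgeR 4.0.16 (glmQLFit, glmQLFTest, R 4.3.3) over all genes, with the replicate letter as a block and Benjamini-Hochberg adjustment at 0.05. The script was tested on simulated data. The series' design text states the pairing. Within a letter, the departures of the 2 libraries from their own group's mean correlated weakly across genes, at 0.109 (B), 0.135 (C) and 0.0476 (D). Between libraries of different letters and groups, the correlations ran from -0.12 to -0.0051. No libraries of a group agreed within counting noise (chi-square per degree of freedom of at least 5.33). Standard errors were taken from the log2 fold change and its F statistic (absolute value over root F), and 95% intervals use the fit's degrees of freedom. CPM values are counts over the TMM-scaled total. Exonic lengths, overlaps and sequence sharing came from GENCODE release 29, and start regions from RefSeq. DESeq2 1.42.0 was an alternative.

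The genes and lists were chosen with earlier results of these data known. Named besides the 7 genes are called genes of each list (at most 6), the nearest 3 protein-coding genes on each side of KCNN4 and the 5 genes most like it. From the lists, some uncalled genes (LRRC26, CALM2, CALM3, PGAM5, PHPT1, NME2, REST, ORAI1 and STIM1) were added after their values were seen. Of the lists, 2 genes are not reported here, and counts and medians leave them out.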

Additional observations from a re-analysis of the deposited data

How the results depend on the processing

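KCNN4 was called in all 10 alternative fits and stood at -3.26 with a prior count of 2. Its log2 fold change ran between -3.97 (without replicate D) and -3.23 (without replicate B). These fits reuse the libraries from which KCNN4 was picked, so they show how far its value moved and add no support for it. KCNN1, KCNN2, KCNMA1, KCNMB3 and KCNMB4 were called in none of the fits that tested them (KCNN2 could not be tested with a mean of at least 50 counts). KCNMB3 changed sign in 2 of 11 alternatives, with values from -0.14 to 0.15, within the spread of its pairs. The number of the 7 genes called was 2, and it was 1 without the replicate block, with upper-quartile scaling, with a mean of at least 50 counts, in DESeq2, with counts thinned to the smallest library total, and without each of the replicates B, C and D (lowest and highest 1), since KCNN3 lost its call. The 9 called genes of the lists lost 9 calls without the block, 8 without replicate C and 7 in DESeq2, with 0 changes of sign. These list fits and the second gene length were chosen after seeing the data.

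Over all genes, 1777 were called (791 higher, 986 lower). Without the replicate block it was 470 (89 and 381), in DESeq2 755 (324 and 431), and with upper-quartile scaling 422 were higher. Leaving out a replicate gave 406 (without C) to 2435 (without B) calls, 82 to 1263 higher and 324 to 1172 lower. The cause was not tested. Depth limits the genes with few counts: KCNN2, KCNMA1 and KCNMB3, each with under 100 counts per library, had standard errors of 0.22, 0.20 and 0.20, against 0.10 for KCNMB4. KCNN4, with 7 to 12 counts in the ppk1 libraries, had the largest standard error of the 7 genes, 0.26.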
